A study of Rattus norvegicus with 15 samples.

Results

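Notch receptors, their ligands and the target genes of the pathway were followed in the testes of irradiated and control rats. The 10 genes are the receptors Notch1, Notch2, Notch3 and Notch4, the ligands Jag1, Jag2 and Dll1, and the targets Hes1, Hey1 and Heyl. They were chosen by name: every probe set whose single gene symbol is one of the 10 was taken, which gave 14 probe sets of 31042 on the array, control probe sets aside. The array names 14217 genes in this way. Notch1 and Heyl have more than 1 probe set each, and so does Notch4.

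The rats were LBNF1, an F1 hybrid laboratory strain, aged 25 to 27 weeks. The groups were 10 control testis samples, which the source label places before irradiation, and 5 samples from rats given 6 Gy to the lower abdomen. The labels call the samples biological replicates but name no animal for each of them. The tests therefore speak only of the spread among the samples, which may be technical. How long after the dose the testes were taken is not stated in the labels. RNA was measured on Affymetrix arrays, and each value is the log2 MAS5 signal of a probe set, a group of short oligonucleotides that bind 1 transcript region.

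Notch receptors are membrane proteins that are bound by ligands on a neighbouring cell, cut first outside and then inside the membrane, and release an intracellular part that enters the nucleus. There it joins the DNA-binding protein RBPJ and mastermind coactivators and switches on genes such as Hes1, Hey1 and Heyl, which encode transcriptional repressors. In the mouse testis the pathway has been tied to repression of Gdnf in Sertoli cells through HES1 and HEY1, and in the fetal testis to the upkeep of Leydig cell progenitors.

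The start regions of 9 of the 10 genes were matched by symbol in a RefSeq table of the rat assembly GRCr8. They came in 10 entries that each run from 250 bases before to 50 bases after the annotated start. Hey1 had no entry and was not searched. The entries were searched on both strands for TGGGAA, the core bound by RBPJ, and for CACNAG, a core bound by HES repressors. The promoters of Hes1 and Jag1 are shown because these were the genes whose irradiated arrays all lay above all control arrays, and that of Heyl because it is a target with no match. Each is 1 strand, 5′ to 3′ in the direction of the gene, with TGGGAA or its complement in capitals: Hes1 at chr11:84212996-84213295 (minus strand), Jag1 at chr3:144894834-144895133 (minus strand) and Heyl at chr5:140793021-140793320 (plus strand).
Hes1: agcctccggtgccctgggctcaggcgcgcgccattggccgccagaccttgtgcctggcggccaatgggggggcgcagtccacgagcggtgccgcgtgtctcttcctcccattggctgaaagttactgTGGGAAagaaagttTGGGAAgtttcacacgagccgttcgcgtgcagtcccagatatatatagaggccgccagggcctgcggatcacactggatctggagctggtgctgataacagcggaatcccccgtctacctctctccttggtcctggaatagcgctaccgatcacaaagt
Jag1: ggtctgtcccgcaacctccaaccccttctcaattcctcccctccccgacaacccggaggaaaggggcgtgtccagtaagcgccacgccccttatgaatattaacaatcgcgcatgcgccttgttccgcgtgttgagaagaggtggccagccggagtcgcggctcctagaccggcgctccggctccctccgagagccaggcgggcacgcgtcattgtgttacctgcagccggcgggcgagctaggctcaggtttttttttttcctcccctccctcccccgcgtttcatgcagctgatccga
Heyl: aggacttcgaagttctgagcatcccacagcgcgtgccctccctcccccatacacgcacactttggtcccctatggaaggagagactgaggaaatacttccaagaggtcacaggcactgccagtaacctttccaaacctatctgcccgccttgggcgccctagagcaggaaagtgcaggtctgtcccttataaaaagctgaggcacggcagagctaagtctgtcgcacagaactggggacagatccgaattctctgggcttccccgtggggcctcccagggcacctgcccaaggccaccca
The Hes1 region holds 2 matches to TGGGAA on the gene's own strand, which begin 123 and 109 bases before the start, 14 bases apart. It also holds 4 matches to CACNAG, none of which overlaps a TGGGAA match. At least 1 match to TGGGAA was found in 25.7% of the 33469 promoters of this length in the table, and at least 2 in 3.85%. For CACNAG these shares were 43.1% and 11.2%. Among the other members, Dll1 and Notch4 hold 2 TGGGAA matches each and Notch3 holds 1. Notch1 holds 4 matches to CACNAG, the nearest 2 of which overlap on opposite strands, Notch4 holds 2 and Notch3 holds 1. No match to either motif was found in the regions of Jag1, Jag2, Notch2 and Heyl. A match says only that the letters are present.

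The arrays of the groups stood apart as a whole. Any 2 control arrays correlated at 0.906 to 0.94 over all probe sets and any 2 irradiated arrays at 0.941 to 0.957, while a control and an irradiated array correlated at 0.645 to 0.687. The array medians ran from -1.61 to -1.37 in control and from -1.38 to -1.26 in irradiated arrays. Because the zero of the scale is not known and no detection calls were used, a signal below the median of its own array is treated as dim, that is, as giving only an upper bound. Genes of meiotic and later germ cells, fixed by name as markers, were lower in irradiated testes in 6 of 6 tested spermatocyte, 5 of 5 round spermatid and 10 of 10 elongating spermatid genes. Of these, 6, 4 and 5 were dim in every irradiated array and were tested through the control arrays alone. Genes of somatic cells were higher: 14 of 14 Sertoli, 10 of 10 Leydig, 9 of 10 peritubular and smooth muscle, 4 of 4 pericyte, 11 of 14 endothelial (2 lower) and 10 of 12 macrophage genes (2 lower). Here 1 Sertoli, 2 peritubular, 5 endothelial and 4 macrophage genes were dim in every control array and were tested through the irradiated arrays alone. Others met the filter only with the help of the irradiated arrays, such as Tpm2, Eng and C1qa, dim in 6, 9 and 9 of 10 control arrays. Of the lower genes, 2 endothelial and 1 macrophage gene were dim in every irradiated array. Of the smaller lists, lymphocyte genes were higher in 2 and lower in 1 of 3, undifferentiated spermatogonia genes higher in 1 and lower in 2 of 4, and differentiating spermatogonia genes higher in 2 of 2. Of the last 2, Kit was dim in every control array and was tested through the irradiated arrays alone. Gfra1 (undifferentiated spermatogonia) and Ms4a1 (lymphocyte), both lower, were dim in every irradiated array and were tested through the control arrays alone. For all genes tested, 47.6% rose and 37.9% fell. As some marker genes were tested only through the group in which they are high, all these counts are a description.

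Of the 14 probe sets, 9 from 7 genes were tested because they were not dim in 5 or more of the 15 arrays. The probe sets of Notch2, Jag2 and Dll1 and both weaker ones of Notch4 did not. In irradiated testes 5 of the 9 rose and 0 fell (limma, adjusted p under 0.05 over all 18711 probe sets tested). They belong to Jag1, Hes1, Notch1 (both probe sets) and Heyl (1 of 2). Jag1 and this Heyl probe set (1390882_at) met the filter only with the help of the irradiated arrays, in which they are high, so the count is a description. Of the 7 that met it on control arrays alone, 3 rose. The share called, 55.6%, was below the 83.4% of all probe sets tested, of which 49.0% rose and 34.3% fell. Since most of the array changed, a call by itself says little about these genes, and their sizes are set beside the cell type markers below. At an unadjusted p of 0.05 limma also gave 5 higher and 0 lower, and the exact permutation test 6 higher and 0 lower. The median change of the tested members was 0.50 on the log2 scale and that of all tested probe sets 0.30. By size alone, the median was 0.50 for members and 1.09 for all. A called rise of at least 1 was seen in 3 probe sets (Jag1, Hes1 and 1 of Heyl) and a called fall of that size in 0, where 33.6% and 19.5% of all tested probe sets rose or fell so far. In bulk tissue, a change in the number of cells of a type and a change in RNA per cell cannot be told apart, which holds for every value here.

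**Figure D1:**
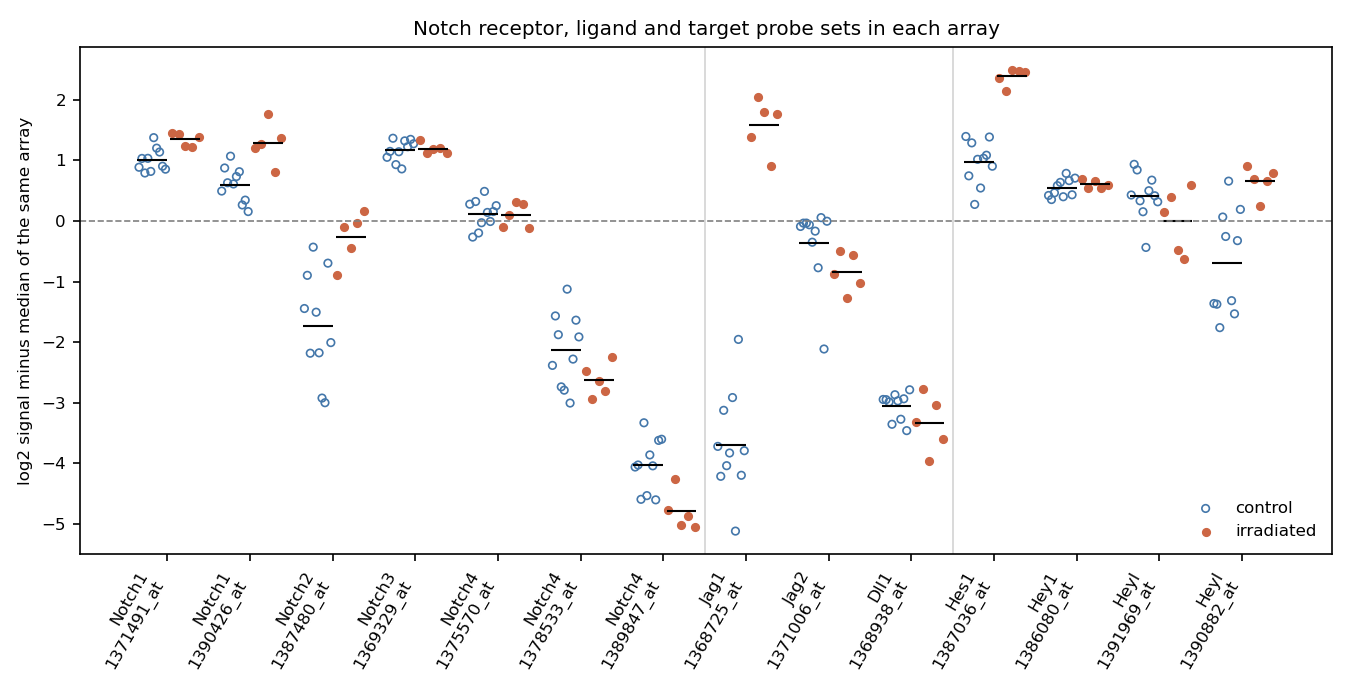
Log2 signal of each of the 14 probe sets minus the median of the same array (y axis), for the 10 control arrays (open circles) and 5 irradiated arrays (filled circles), with group means as black bars and the array median as a dashed line. Receptors, ligands and targets stand left to right. Jag1 and Hes1 are the probe sets in which the groups do not overlap, and all 10 control values of Jag1 lie below the dashed line.

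Among the ligands, Jag1 was higher in irradiated testes, with the widest measured difference of the 14 probe sets. JAG1 is a membrane ligand of the Serrate type that binds Notch receptors on the next cell. Its signal (probe set 1368725_at) ran in the control arrays from -6.51 to -3.47 with a median of -5.26, below the array median in 10 of 10. In irradiated replicates 1 to 5 it was 0.12, 0.70, 0.51, -0.47 and 0.48, above the array median in every array. The groups do not overlap, and irradiated replicate 4 is the lowest of its group. The measured means were -5.15 ± 0.84 (SD, n = 10) and 0.27 ± 0.46 (SD, n = 5), a measured difference of 5.42. Jag1 entered the test through its 5 irradiated arrays alone, so that test had its direction fixed in advance and its p is not given. In a fit of all 31042 probe sets with no filter the limma adjusted p was 3.44e-09. As the control signals are dim, this size is not a measured fold: with control values set at their array medians, Jag1 was at least 3.33-fold higher.

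Jag2, the other Serrate-type ligand, lay near or below the array median. Its values (1371006_at) ran from -3.61 to -1.42 in control arrays, with a median of -1.59, and were -2.14, -1.84, -2.56, -1.93 and -2.30 in irradiated replicates 1 to 5. The groups overlap, 9 of 10 control and 5 of 5 irradiated arrays were dim, and no size of change can be given. Dll1, a Delta-type ligand (1368938_at), was dim in all 15 arrays, between -4.96 and -4.20 in control and between -5.25 and -4.12 in irradiated testes. As measured within each array, the Jag1 to Jag2 log2 ratio was higher in irradiated testes by 5.75 and the Jag1 to Dll1 ratio by 5.55. Such ratios were compared by an exact 2-sided permutation test, with adjustment over 12 pairs of members. The 3003 regroupings allow no p below 0.000333. With every dim value raised to its array median, the differences in the Jag1 to Jag2 and Jag1 to Dll1 ratios were 1.58 and 1.58. Jag1 and Dll1 are dim in every control array and Jag2 in 9 of 10. These outcomes thus rest on the irradiated signal of Jag1, and their p is not given. A ratio of dim values is not measured, so these differences are no separate support for a gain of Jag1 on either ligand. The Jag2 to Dll1 ratio changed by -0.20 (exact permutation p = 0.459, adjusted p = 0.501). Both genes are dim, and without control replicate 9 the adjusted p was 0.0223 by the same test.

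The receptors moved little or lay too low to size. Notch1, the receptor with 2 tested probe sets, rose in both. Probe set 1371491_at ran from -0.72 to -0.12 in control arrays with a median of -0.50, and was 0.19, 0.09, -0.05, -0.16 and 0.10 in irradiated replicates 1 to 5. Here 4 of the 5 irradiated arrays lay above every control array, and replicate 4 did not. The change was 0.50 ± 0.11 (SE, 95% interval 0.28 to 0.72; limma adjusted p = 0.000342). After quantile normalization of the arrays it was 0.14 (limma adjusted p = 0.200). Probe set 1390426_at ran from -1.26 to -0.40 in control arrays with a median of -0.80, and was -0.06, -0.07, 0.47, -0.57 and 0.08 in irradiated replicates 1 to 5. Again 4 of 5 irradiated arrays lay above the highest control array and replicate 4 lay among the controls. Its change was 0.84 ± 0.17 (SE, limma adjusted p = 0.000261), and the probe sets differed in change by 0.34 in a comparison added after the values were seen (exact permutation p = 0.0686, adjusted p = 0.0686 over 2 genes).

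Notch3, known from smooth muscle and pericytes of vessels, did not pass. Its signal (1369329_at) ran from -0.63 to -0.07 in control arrays with a median of -0.26, and was 0.08, -0.23, -0.10, -0.19 and -0.17 in irradiated replicates 1 to 5. The irradiated values lie inside the control range except that of replicate 1. The difference was 0.18 ± 0.11 (SE, 95% interval -0.04 to 0.41; limma adjusted p = 0.121). Of 6 pericyte markers, the 4 tested rose by 1.09 to 2.19 over the same arrays as measured. Among them Rgs5 and Abcc9 were each dim in 9 of 10 control arrays and met the filter only with the help of the irradiated arrays. With dim values at the array median these 2 genes changed by 0.88 and 1.89.

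Notch4, described mainly in endothelial cells, did not pass either. Its strongest probe set (1375570_at) ran from -1.72 to -1.002 in control arrays, with a median of -1.34, and was -1.36, -1.24, -0.98, -1.10 and -1.40 in irradiated replicates 1 to 5. The values straddle the array median in both groups, and the groups overlap. The difference was 0.14 ± 0.12 (SE, 95% interval -0.12 to 0.39; limma adjusted p = 0.289). Its other probe sets, 1378533_at and 1389847_at, were dim in all 15 arrays, with means of -3.60 and -5.49 in control and -3.93 and -6.10 in irradiated testes.

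Notch2 (1387480_at), a receptor close in sequence to Notch1, was dim in 10 of 10 control and 4 of 5 irradiated arrays and was not tested. It ran from -4.51 to -1.90 in control arrays with a median of -3.24, and was -2.15, -1.44, -1.74, -1.41 and -1.11 in irradiated replicates 1 to 5. The measured difference of 1.62 lies almost wholly below the array median, and was 0.19 with every value at no less than that median. For Notch2, replicate 1 alone of the irradiated arrays fell inside the control range. In the receptor pairs, the Notch2 to Notch3 and Notch2 to Notch4 ratios differed by 1.44 and 1.48 (exact permutation p = 0.00999 and 0.012, adjusted p = 0.024 each), which became 0.01 and 0.06 with dim values at the median (exact permutation p = 0.939 and 0.543). The Notch1 to Notch3 ratio changed by 0.32 (exact permutation p = 0.0556, adjusted p = 0.0741), the Notch1 to Notch4 ratio by 0.36 (exact permutation p = 0.043, adjusted p = 0.0644). The Notch1 to Notch2 ratio changed by -1.12 (exact permutation p = 0.0313, adjusted p = 0.0537), but by 0.31 with dim values at the median (exact permutation p = 0.00766), so its direction is not settled. The Notch3 to Notch4 ratio changed by 0.04 (exact permutation p = 0.79, adjusted p = 0.79).

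Of the target genes, Hes1 rose and Hey1 did not pass. Hes1 encodes a repressor of the HES family. Its promoter, shown above, carries 2 TGGGAA matches, as do those of Dll1 and Notch4, while that of Hey1 was not searched. The Hes1 signal (1387036_at) ran from -1.19 to -0.12 in control arrays with a median of -0.40, and was 1.10, 0.80, 1.20, 1.09 and 1.18 in irradiated replicates 1 to 5. The groups do not overlap, replicate 2 being the lowest irradiated array, and all 15 values lie above the array median. The means were -0.50 ± 0.35 (SD, n = 10) and 1.07 ± 0.16 (SD, n = 5), a rise of 1.57 ± 0.16 (SE; 2.98-fold; limma adjusted p = 9.91e-08). Groups without overlap were found in 2 of the 9 tested member probe sets, Jag1 and Hes1, both higher, and in 65.5% of all probe sets tested (41.3% higher and 24.2% lower). Over all 14 they were again these 2, against 45.9% of the whole array.

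Hey1 encodes a repressor of the related HEY family. Its signal (1386080_at) ran from -1.19 to -0.61 in control arrays with a median of -0.94, and was -0.57, -0.81, -0.63, -0.84 and -0.69 in irradiated replicates 1 to 5. Only replicate 1 lay above the control range. The difference was 0.22 ± 0.10 (SE, 95% interval -0.00 to 0.43; limma adjusted p = 0.0606). It passed in 3 runs that left out 1 array, with limma adjusted p-values of 0.0468, 0.0246 and 0.0413 without control replicate 5, 7 or 10.

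The probe sets of Heyl, another gene of this family, disagree. Probe set 1391969_at ran from -1.93 to -0.52 in control arrays with a median of -1.09, and was -1.11, -0.94, -1.78, -2.01 and -0.70 in irradiated replicates 1 to 5, a difference of -0.26 ± 0.23 (SE; limma adjusted p = 0.307). Probe set 1390882_at ran from -3.22 to -0.83 in control arrays with a median of -2.27, and was -0.35, -0.65, -1.04, -0.72 and -0.49 in irradiated replicates 1 to 5. The first shows groups that overlap, and in the second 4 of 5 irradiated arrays lay above every control array. The second rose by 1.52 ± 0.37 (SE), of which 0.72 is left with dim values at the array median, since 7 of 10 control arrays were dim. It met the filter only with the help of the irradiated arrays, in which it is high, so the p of that test is not given. In the fit with no filter its limma adjusted p was 0.00253. The difference in change between the probe sets was 1.77 (exact permutation p = 0.0103, adjusted p = 0.0206 over 2 genes), and 0.80 with dim values at the array median (exact permutation p = 0.004, adjusted p = 0.00799). This comparison, too, was added after the values were seen. Which of them reports Heyl was not tested.

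Compared within arrays, Hes1 gained on Hey1 by 1.36 (exact permutation p = 0.000333, adjusted p = 0.000999). It also gained on Heyl by 1.83 with probe set 1391969_at (exact permutation p = 0.000333, adjusted p = 0.000999), but with the more variable probe set 1390882_at that difference was 0.06 (exact permutation, adjusted p = 0.911). The Hey1 to Heyl ratio, 0.47 with the first (exact permutation p = 0.0846, adjusted p = 0.101), was -1.30 with the second (exact permutation, adjusted p = 0.0165). In all, 6 of the 12 pairs passed as measured. Those of Jag1 with Jag2 and Dll1, and of Notch2 with Notch3 and Notch4, hold a member that is dim in every control array. The share that pairs of other genes would give was not computed, so the count is a description.

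The somatic marker genes give a measure of how far somatic transcripts rose in the same RNA. The median of the 14 Sertoli genes in each array rose by 2.05 on average, that of the 10 Leydig genes by 3.45, that of the 10 peritubular genes by 2.07 and that of the 14 endothelial genes by 1.30. The summed signal of the Sertoli genes ran from 5.42 to 5.80 (log2) in control and from 7.38 to 7.86 in irradiated arrays. For Leydig genes these ranges were 2.86 to 3.51 and 6.65 to 6.94, for peritubular genes 3.39 to 3.78 and 5.14 to 5.49, and for endothelial genes 2.10 to 2.47 and 3.55 to 3.83. The endothelial median was itself dim in 10 of 10 control arrays, and 5 of its 14 genes were dim in every one, so its rise is only bounded, at 0.90 or more with dim values at the array median. The other 3 medians were dim in 0 arrays. The part of these shifts in the member values was not tested.

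**Figure D2:**
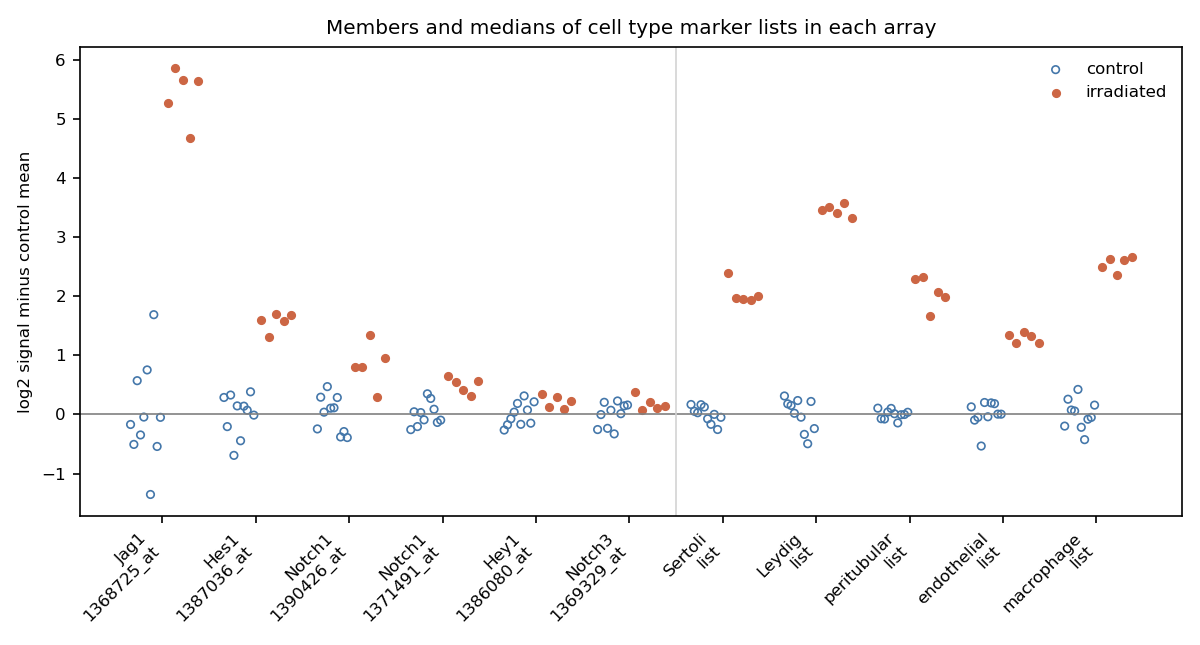
Log2 signal minus its control mean (y axis) in each control array (open circles) and irradiated array (filled circles), for 6 member probe sets on the left and for the median of 5 marker lists on the right. Hes1, at 1.57 on average, lies below the Sertoli list at 2.05. The endothelial list, at 1.30, is dim in every control array, and both Notch1 probe sets, Hey1 and Notch3 lie on average under every list shown as measured.

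Set against these medians array by array, most members lagged behind the somatic genes. Most of the array did so too relative to the Sertoli list. With arrays centred on that list, 88.7% of all probe sets tested were called (limma), and 10.3% of those called were higher. Notch1 (1371491_at) fell behind the Sertoli median by 1.55, the Leydig median by 2.95 and the peritubular median by 1.57. Its lag behind the endothelial median, 0.79 as measured, was 0.40 with dim values at the array median (exact permutation p = 0.000666). The second Notch1 probe set (1390426_at) lagged behind the Sertoli, Leydig and peritubular medians by 1.21, 2.61 and 1.23, and was at -0.06 relative to the endothelial median with dim values at the array median (exact permutation p = 0.73). Notch3, Notch4 (1375570_at) and Hey1 fell behind the Sertoli, Leydig and peritubular medians by between 1.83 and 3.31, each with an exact 2-sided permutation p of 0.000333 and an adjusted p of 0.000416 over 40 comparisons. Against the endothelial median their lag was 0.72, 0.77 and 0.68 with dim values at the array median (exact permutation p = 0.000333 each).

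The Heyl probe sets disagreed here as well. Relative to the Sertoli median 1391969_at fell behind by 2.31 (exact permutation p = 0.000333) and 1390882_at by 0.53 (exact permutation p = 0.216). With dim values at the array median these were 2.13 and 1.33 (exact permutation p = 0.000333 each). Relative to the endothelial median, treated in that way, they were at -0.97 and -0.17 (exact permutation p = 0.000333 and 0.241). The values for the second probe sets of Notch1 and Heyl, and those with dim lists at the array median, were added after the data were seen.

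Hes1 fell behind the Sertoli median by 0.48 (exact permutation p = 0.0356, adjusted p = 0.0385), the peritubular median by 0.49 (exact permutation p = 0.034, adjusted p = 0.0385) and the Leydig median by 1.88 (exact permutation p = 0.000333, adjusted p = 0.000416). Against the endothelial list it stood at 0.28 as measured and 0.68 with dim values at the array median. Since the endothelial rise is only bounded from below, neither value settles which rose more. The peritubular outcome depends on how the list is summarized. The median change of its single genes lay below the 1.57 of Hes1, whereas that of the Sertoli genes, 2.07, lay above it. As measured, single genes changed by -0.17 to 4.67 (peritubular) and 0.97 to 6.98 (Sertoli). The top gene of each list, Tagln and Testin, was dim in every control array. The permutation test covers the spread among arrays, not that among the genes of a list.

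Jag1 as measured stood above the Sertoli, Leydig and peritubular lists by 3.37, 1.97 and 3.35, but those sizes rest on dim control values. With Jag1 set at no less than the array median, its change relative to the Sertoli list was -0.32 (exact permutation p = 0.0836), to the peritubular list -0.33 (exact permutation p = 0.0713) and to the Leydig list -1.72 (exact permutation p = 0.000333). As Jag1's rise is a lower bound, its place relative to these lists is not settled. Over all 40 comparisons of members with lists 37 passed as measured, dim members and the dim endothelial list included. The share that other genes would give in these comparisons was not computed.

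Centring each array on its Sertoli median subtracts the same amount, 2.05 on average, from every change and so restates the differences from that list. On that scale 1 tested probe set (Jag1) was higher and 7 were lower, against 5 higher and 0 lower as deposited. Of all probe sets tested, 88.7% were then called, against 83.4% as deposited. Over all probe sets called, 10.3% were then higher, against 58.8% as deposited, and the median change of all genes tested moved from 0.20 to -1.85.

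**Figure D3:**
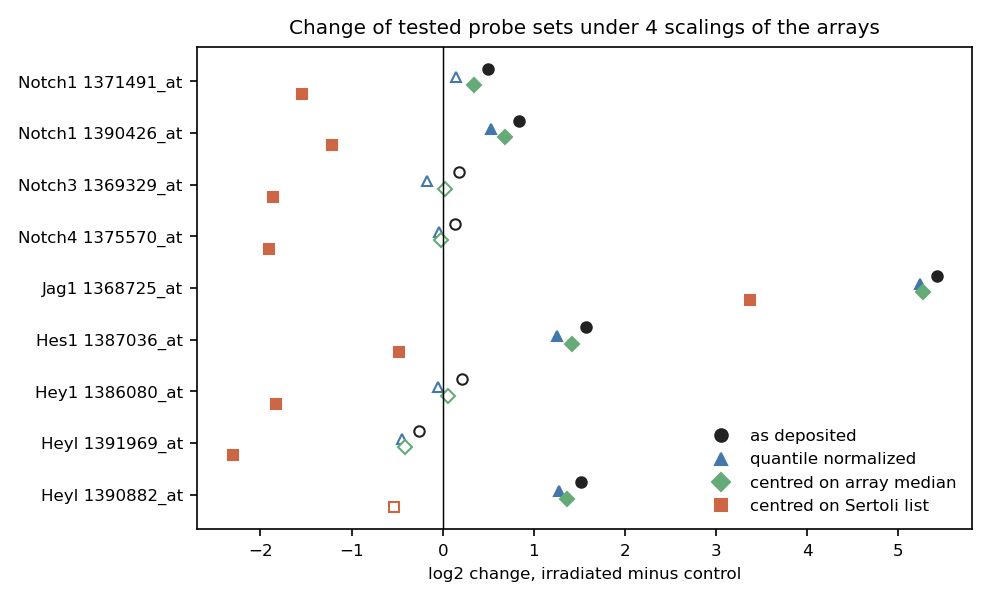
Log2 change of the 9 tested probe sets, irradiated minus control (x axis), under 4 scalings: as deposited, quantile-normalized, median-centred and Sertoli-centred. Filled symbols have a limma adjusted p under 0.05. Jag1 stays to the right of 0 under all 4 scalings as measured, whereas Hes1 and Notch1 lie to the right under 3 and to the left with Sertoli centring.

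The rest of the pathway was followed through 54 further genes in 4 groups, of which 43 were on the array by a single symbol and 37 were tested, each by its strongest probe set. Of these 17 rose, 12 fell and 8 did not pass (limma), that is, 78.4% called against 85.5% of all genes tested. Their median change was 0.15, where that of all genes was 0.20. Poglut1 and Tle1 (dim in 10 and 8 of 10 control arrays) met the filter only with the help of the irradiated arrays. Dll3 met it through the control arrays alone, so these counts, too, are a description.

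Among 13 tested genes of the RBPJ complex and its cofactors, 10 rose and 2 fell, and their median change was 1.13. Of all genes tested, 47.6% rose and 37.9% fell. Rbpj, the DNA-binding protein that all 4 receptors act through, rose by 1.87 ± 0.10 (SE; limma adjusted p = 1.76e-11), and its second tested probe set by 1.23. The coactivators Maml2, Ep300 and Kat2b rose by 1.95, 1.87 and 1.47. Other probe sets of these 3 went from -0.78 to 0.25, stood at -0.17 and stood at 0.36. The corepressors Tle4 and Tle3, of a family that HES proteins recruit, rose by 2.12 and 1.39, and the corepressor Ncor1 by 1.13. With Sertoli centring, Rbpj stood at -0.18 (limma adjusted p = 0.145) and Tle4 at 0.06 (limma adjusted p = 0.594).

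Genes that glycosylate or cut the receptors rose in 5 of 9 and fell in 2, with a median of 1.09 (all genes tested: 47.6% rose, 37.9% fell). Aph1a, a subunit of the gamma-secretase that makes the cut inside the membrane, rose by 2.40 ± 0.21 (SE; limma adjusted p = 1.24e-08). Furin, the protease that cuts the receptor on its way to the surface, rose by 1.68. Adam10, the protease that sheds the outer part after ligand binding, rose by 1.59, with 0.85 in its other probe set. Poglut1, which adds O-glucose to the receptor's EGF repeats, was dim in every control array and was at least 1.66-fold higher.

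Ubiquitin ligases and endocytic adaptors went both ways, with 2 of 8 higher, 3 lower and a median of -0.05 (all genes tested: 47.6% higher, 37.9% lower). The deltex ligases, which bind the intracellular part of the receptor, split: Dtx1 rose by 2.25 ± 0.12 (SE; limma adjusted p = 1.76e-11) and Dtx4 by 1.78 (0.58 in its other tested probe set), while Dtx2 fell by 1.33 and was dim in 3 of 5 irradiated arrays.

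Among 7 tested remaining ligands and targets, 0 rose and 5 fell, and their median change was -0.57. For all genes tested, 47.6% rose and 37.9% fell. Dll3, a Delta-type protein that does not activate receptors on other cells, was dim in every irradiated array and at least 1.43-fold lower. Nrarp, a feedback inhibitor that Notch activity switches on, fell by 0.83 ± 0.13 (SE; limma adjusted p = 1.51e-05), and the HES family target Hes5 by 0.57. Both were chosen for mention after their values were seen. Hes5 was dim in 4 of 5 irradiated arrays, and a second probe set of Nrarp did not pass (-0.41, limma adjusted p = 0.0553). Among the targets, Hes1 thus rose while Nrarp and Hes5 fell as deposited.

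**Figure D4:**
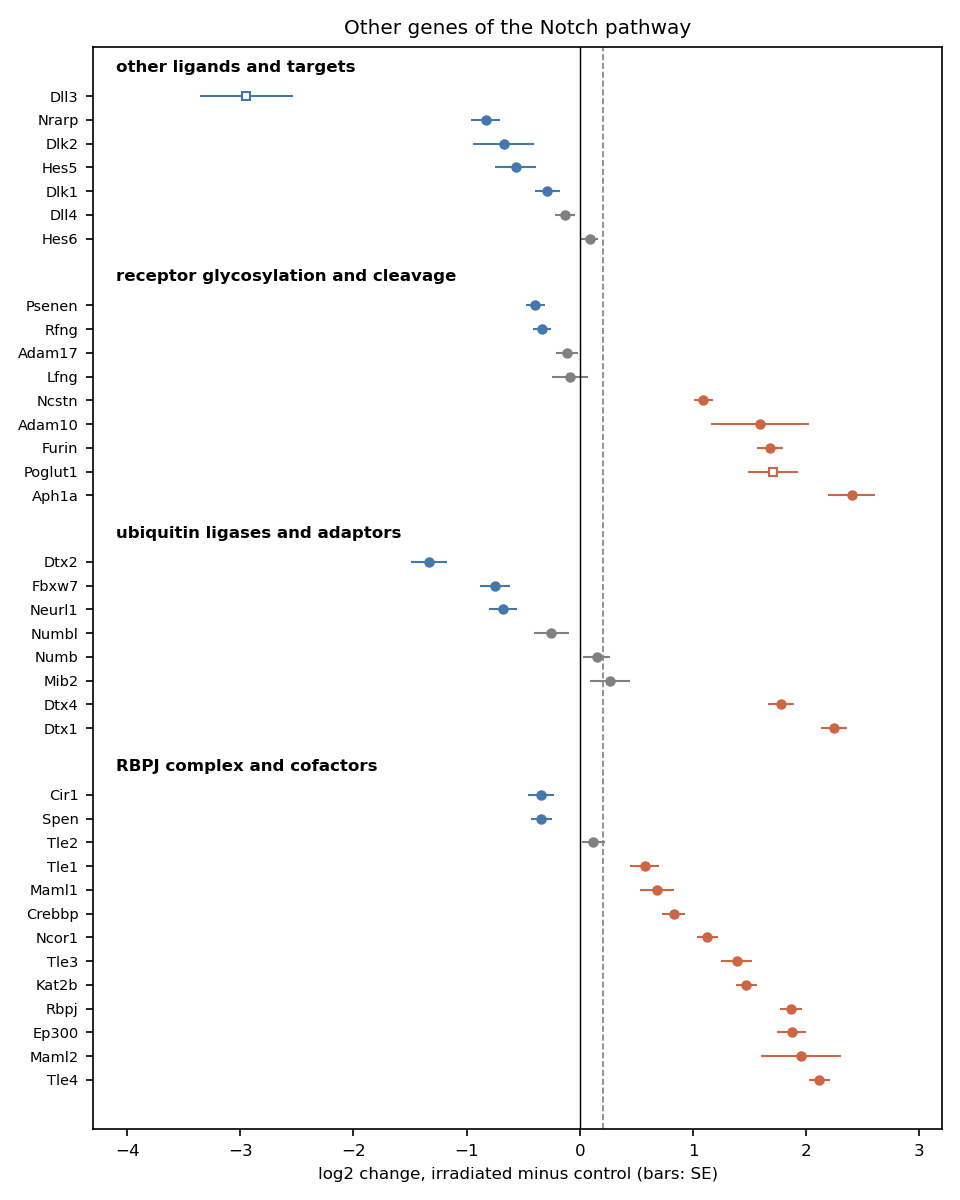
Log2 change, irradiated minus control (x axis), with its SE for the 37 other tested genes of the pathway, in 4 groups by role. Orange symbols rose, blue symbols fell and grey ones did not pass (limma adjusted p of 0.05), open squares were dim in every array of 1 group, and the dashed line marks the median of all genes, 0.20. Cofactors of RBPJ lie mostly to the right and the other ligands and targets mostly to the left.

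Genes with the most similar profile were sought for the 3 genes with the widest change among those that passed, each by its probe set with the highest mean, by the root mean square difference over the 15 arrays after each gene's control mean was subtracted. For Hes1 these were Il13ra2, Tnfsf13 and RT1-CE12, at 0.19, 0.21 and 0.21 log2 units. RT1-CE12 belongs to the MHC class I family, whose members can share probes. For Notch1 (1371491_at) they were Rngtt, Rtfdc1 and Atp5pf at 0.10, 0.11 and 0.12. For Jag1 they were Phkb, Pltp and Abcc3 at 0.66, 0.66 and 0.72, all dim in every control array as Jag1 is.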

How the data were processed

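The series holds 15 Affymetrix arrays, 10 control and 5 irradiated, grouped by title. The deposited table gives 1 log2 value per probe set and array. The submitters' processing notes name MAS5 as the tool behind these deposited log2 signals. Its version and scaling are not given in the sources used here. Base 2 was read from the hybridisation spike-ins at nominal 1.5, 5, 25 and 100 pM, which rose by 0.884 (control) and 0.906 (irradiated) units per doubling. The zero point is unknown, and 0 array columns were left unused. The analysis used the log2 values as deposited, with no pseudocount.

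Genes were named from the platform annotation of 2016 (20832 probe sets with 1 symbol, 436 with several, 9831 with none). The gene IDs and symbols of all 10 members matched RefSeq. The 57 AFFX probe sets were left out. Tested were the 18711 probe sets (10841 genes) that reached their array's median in at least 5 of 15 arrays, with limma 3.58.1 in R 4.3.3 (lmFit, eBayes, 2-sided, no covariate) and Benjamini-Hochberg adjustment over all of them. For gene counts the tested probe set with the highest mean stood for the gene. Fold bounds ("at least") set the brighter group's mean against dim values raised to the array median. Ratios between members and to marker medians were compared by exact permutation over the arrays. On simulated data the fit called 32.8% of changes of 0.5, 77.6% of changes of 1 and 92.4% of changes of 2. It made 6 false calls among 18711 probe sets. Far fewer probe sets were changed in the simulation than were called here, so these shares need not hold for these data. Arrays have no read depth, and their number limits precision.

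Named were all members, the 15 widest changes of at least 1 among called pathway genes, and 3 nearest genes for 3 members. Members, lists (Notch pathway groups; Sertoli, Leydig, peritubular, pericyte, endothelial, macrophage, lymphocyte, undifferentiated and differentiating spermatogonia, spermatocyte, round and elongating spermatid markers) and tests were chosen with earlier results of these data known. Alternatives changed the scaling, filter, pseudocount, variance model, probe set, block and arrays. Replicate numbers 1 to 5 occur in both groups, and the deviations of same-numbered arrays correlated between -0.05 and 0.07, so they were not treated as pairs.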

Additional observations from a re-analysis of the deposited data

Results flagged for a closer look

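In 28 sets of values (14 probe sets in 2 groups), 3 held an array far from the others by Dixon's criterion, which chance gives in about 1 set in 20. Jag2 was -3.61 in control replicate 9, against -2.17 for the next lowest control array. Both values are dim. Hes1 was 0.80 in irradiated replicate 2, below the next irradiated value of 1.09, and its change without that array was 1.64. Heyl (1391969_at) was -1.93 in control replicate 6, against -1.22 for the next, and in that array the actin signal at the 3′ end exceeded the 5′ end by 1.89 log2 units, the most of any array. The part of that difference in the Heyl value was not tested.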

How the results depend on the processing

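Counts are of tested member probe sets and of other pathway genes (limma). With arrays centred on the Sertoli list, 1 member was higher and 7 lower, and 0 pathway genes were higher and 29 lower. Of all probe sets tested, 88.7% were then called, 10.3% of them higher. This centring subtracts 2.05 on average from every change and turned Notch1 to -1.55 and -1.21, Notch3 to -1.87, Notch4 to -1.91, Hes1 to -0.48, Hey1 to -1.83, Heyl (1390882_at) to -0.53, Furin to -0.37, Poglut1 to -0.34, Adam10 to -0.46, Dtx4 to -0.27, Rbpj to -0.18, Maml2 to -0.10, Kat2b to -0.58, Ep300 to -0.18, Ncor1 to -0.92 and Tle3 to -0.66. Quantile normalization turned Notch3 to -0.17, Notch4 to -0.037, Hey1 to -0.046 and the Notch3 to Notch4 ratio to -0.13, and median centring turned Notch4 to -0.017, all of them changes that had not passed as deposited. With a filter at the 75th percentile Hes1 was the 1 member tested and higher, and 4 pathway genes were lower. With no filter 6 member probe sets were higher, the added one being Notch2 (1.62, limma adjusted p = 0.00186), and 1 was lower (Notch4 1389847_at, dim in all arrays). The Notch3 to Notch4 ratio turned to -0.0096 with control replicates 1 to 5 and to -0.0096 without control replicates 6, 7 and 8, which had high actin 3′ to 5′ differences, and the Jag2 to Dll1 ratio turned to 0.0099 with control replicates 6 to 10. The more variable probe set turned the Hey1 to Heyl ratio to -1.30. Leaving out 1 array at a time gave 5 to 6 members higher, 0 to 0 lower, 17 to 17 pathway genes higher, 11 to 12 lower, 4 to 8 pairs, 34 to 37 marker comparisons and a Notch3 to Notch4 ratio of -0.043 to 0.10. Where no alternative's construction gives the cause, the cause was not tested.

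With the replicate number as a block (replicates 1 to 5 of both groups), 5 members were higher and 0 lower, and 17 pathway genes were higher and 9 lower. In 1 of 5 irradiated arrays the best-correlated control carried its own number, so the numbers are no sign of pairing. The unknown zero of the scale limits what dim probe sets can show.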

Other observations

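Of the 54 other pathway genes, 6 on the array were too dim to test, among them Psen2, a catalytic subunit of gamma-secretase. Its probe set 1370064_at was dim in 10 of 10 control and 1 of 5 irradiated arrays, did not overlap between groups, and was at least 1.23-fold higher in irradiated testes. It was singled out after its values were seen. Of 17 pathway genes with several tested probe sets, 3 had changes of both signs (Numb, Maml2 and Ep300), and in Maml2 the probe sets passed in both directions, at 1.95 and -0.78.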
